A study of Sus scrofa with 6 samples.

Results

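The genes described here build and drive the contractile apparatus of striated muscle: 42 genes named as the sarcomere and excitation-contraction module, all of them found among the 28224 annotated genes of the pig assembly Sscrofa11.1. For each gene the called peaks that overlapped the gene body plus 2000 bp upstream were taken as its window, and these windows held 388 of the 294825 merged accessible regions of the series. Single-cell ATAC-seq measured chromatin accessibility, through fragments that the Tn5 transposase cuts from open DNA and that are barcoded by droplet. The 6 libraries covered embryonic days 18 (E18), 21 (E21) and 28 (E28) in purebred Tibetan animals (ZZ) and in Duroc × Tibetan crosses (DZ), with 1 library per stage and breed made from 5 embryos of 1 sow. The tissue was somite at E18 and E21 and myotome at E28, so stage and tissue cannot be told apart at E28, and sow and library cannot be told apart from breed at any stage. No animal carried a transgene or received a treatment.

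In striated muscle, actin thin filaments slide along myosin thick filaments. The troponin and tropomyosin complex on the thin filament makes this sliding dependent on calcium. Titin and nebulin span or line the filaments, the Z disc anchors the thin filaments and the M line holds the thick filaments in register. Excitation reaches the sarcomere through the voltage-sensing calcium channel, the ryanodine receptor and the proteins that hold their membranes together, and a calcium pump ends the contraction. In the embryo these genes are switched on as myogenic progenitors of the somite leave the cell cycle and express the E-box binding factor myogenin (MYOG). Several of them, among them TNNT2, ACTC1, MYL4 and ACTN2, are also used by the heart.

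The members were grouped by role into 12 thin filament genes, 5 genes of the thick filament and M line, 11 genes of titin and the Z disc, 5 genes of sarcomere assembly, 6 genes of excitation-contraction coupling and 3 genes of the membrane and of energy supply. Values are counts of Tn5 cut sites in the called peaks of a window per 1000000 counts in peaks of the kept barcodes of that library (CPM). The 6 libraries held 9286 to 11243 kept barcodes each and 89816504 to 133037579 counts. Any pair of libraries shared 113 to 157 barcode sequences, at most 1.66% of the smaller library. Peaks were called in each library on its own, so a window without a called peak is listed at 0 there, which is not a measured absence of accessibility. Called peaks covered 168 to 191 Mb at E18, 147 to 158 Mb at E21 and 102 to 108 Mb at E28. Fewer cells of a type and less accessibility per cell cannot be told apart in these sums.

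The sequences that the results below turn on are the 300 bases upstream of the annotated start of 4 assembly genes and of titin. These are 5 of the 6 members with the largest window excess in MYOG-open cells, the comparison made further on, and MYPN, the sixth, had no promoter peak in any library. The central 300 bases of the RYR1 intron region with the smallest adjusted p among the higher regions at E28 are added. They were read from the RefSeq genome of Sscrofa11.1 and are written 5′ to 3′ in the direction of the gene, with capitals marking each match to the E-box letters CANNTG.

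KLHL41 (chr15:75875394-75875693, plus strand): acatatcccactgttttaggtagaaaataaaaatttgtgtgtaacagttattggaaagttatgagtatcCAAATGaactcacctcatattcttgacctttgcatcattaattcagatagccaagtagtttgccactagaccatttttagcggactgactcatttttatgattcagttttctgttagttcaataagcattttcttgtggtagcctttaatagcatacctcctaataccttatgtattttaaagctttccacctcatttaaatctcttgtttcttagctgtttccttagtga
SMTNL1 (chr2:13384844-13385143, minus strand): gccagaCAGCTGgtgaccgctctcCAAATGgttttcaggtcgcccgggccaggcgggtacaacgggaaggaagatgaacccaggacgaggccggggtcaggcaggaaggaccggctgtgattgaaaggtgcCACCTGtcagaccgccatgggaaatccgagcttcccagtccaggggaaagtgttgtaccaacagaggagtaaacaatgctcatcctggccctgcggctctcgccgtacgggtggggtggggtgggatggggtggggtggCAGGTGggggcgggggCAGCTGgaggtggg
KLHL40 (chr13:26202307-26202606, plus strand): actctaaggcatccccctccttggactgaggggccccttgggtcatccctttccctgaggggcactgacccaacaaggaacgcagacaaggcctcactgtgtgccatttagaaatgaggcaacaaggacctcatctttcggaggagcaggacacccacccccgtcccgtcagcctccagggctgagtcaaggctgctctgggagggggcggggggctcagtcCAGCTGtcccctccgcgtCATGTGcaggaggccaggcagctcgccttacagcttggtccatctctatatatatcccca
SMYD1 (chr3:57918577-57918876, minus strand): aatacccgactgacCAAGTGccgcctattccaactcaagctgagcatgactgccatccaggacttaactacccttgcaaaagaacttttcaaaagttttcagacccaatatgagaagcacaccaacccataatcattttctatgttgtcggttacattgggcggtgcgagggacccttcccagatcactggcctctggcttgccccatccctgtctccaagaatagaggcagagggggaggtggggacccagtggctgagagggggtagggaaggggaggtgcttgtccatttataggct
TTN (chr15:84501321-84501620, minus strand): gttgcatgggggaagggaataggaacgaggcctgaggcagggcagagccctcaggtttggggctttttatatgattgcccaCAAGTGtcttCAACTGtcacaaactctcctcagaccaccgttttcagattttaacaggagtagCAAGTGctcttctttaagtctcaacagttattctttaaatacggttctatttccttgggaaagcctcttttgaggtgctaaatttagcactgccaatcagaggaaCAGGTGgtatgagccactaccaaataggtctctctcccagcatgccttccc
RYR1 intron region (chr6:47340731-47341030, plus strand): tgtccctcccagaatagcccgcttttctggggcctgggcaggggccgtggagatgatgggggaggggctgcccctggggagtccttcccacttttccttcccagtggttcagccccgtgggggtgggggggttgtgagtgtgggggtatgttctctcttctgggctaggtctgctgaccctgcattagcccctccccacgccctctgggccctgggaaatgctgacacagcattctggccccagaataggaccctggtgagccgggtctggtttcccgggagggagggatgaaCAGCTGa

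The SMTNL1 upstream sequence held 5 E-boxes, TTN 4, KLHL40 2, and KLHL41 and SMYD1 1 each, while the RYR1 intron stretch held 1. Base composition differed widely, from 33.0% G and C upstream of KLHL41 to 64.0% upstream of SMTNL1. Searched on both strands over the same 300 bases, CANNTG was found upstream of 34 of the 42 members (81.0%) and of 68.9% of the 19559 annotated protein-coding genes. Its form CAGCTG, which is also counted as CANNTG, was found upstream of 14 members (33.3%) and of 16.02% of all genes. The MEF2 box was found upstream of 9 members (21.4%) and of 3.16% of all genes, and in TTN it began 79 bases before the start. The letters CATTCC (MCAT) were found in 5 members, the CArG box in 2, TCAGGTT (MEF3) in 2 and TATAAA in 4, against 12.5%, 1.60%, 4.13% and 11.9% of all genes. A match is a description of letters and not of a bound site.

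Called peaks of the members became fewer and shorter with stage, while their summed level stayed between 1325 and 1591 CPM. The 42 windows together held 1562 CPM (E18 ZZ), 1537 CPM (E18 DZ), 1426 CPM (E21 ZZ), 1325 CPM (E21 DZ), 1433 CPM (E28 ZZ) and 1591 CPM (E28 DZ). The covered length was, in the same order, 351147 and 309161 bp at E18, 253876 and 254229 bp at E21, and 167055 and 194848 bp at E28. The level per covered kilobase was therefore 4.45 and 4.97 CPM at E18, 5.62 and 5.21 CPM at E21, and 8.58 and 8.17 CPM at E28. The stages did not overlap in covered length or in level per kilobase. In summed level E18 and E28 overlapped, and both E21 libraries lay below the other 4. The covered length was shorter at E28 than at E18 for 39 of the 42 members.

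**Figure D1:**
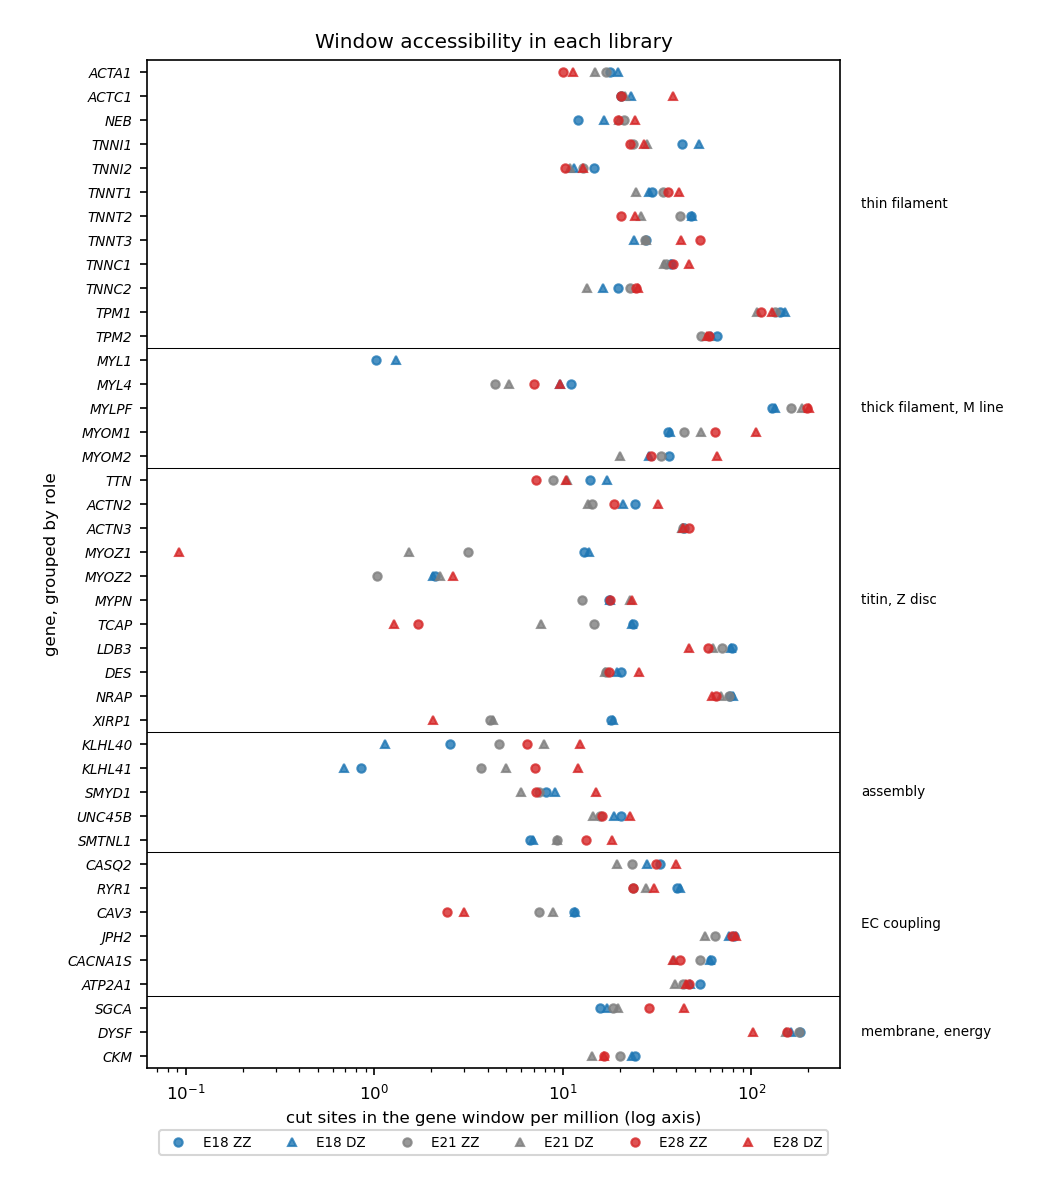
Accessibility of the 42 gene windows in the 6 libraries, in CPM on a log axis, with 1 point for each library and genes grouped by role. Windows without a called peak in a library have no point there, as MYL1 after E18, and KLHL41 runs from 0.849 and 0.69 CPM at E18 to 7.13 and 12.1 CPM at E28 while TCAP runs the other way.

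Between E18 and E28, 21 of the 42 windows changed, 8 upward and 13 downward. All windows of the genome that could be tested changed in a like share, 42.4% of 23286, with 20.6% higher and 21.8% lower. The median log2 fold change was −0.10 over the members and −0.04 over all windows. The 5 assembly genes held 3 that rose (KLHL40, KLHL41 and SMTNL1) and none that fell. Of the 11 titin and Z disc genes 5 fell (TTN, MYOZ1, TCAP, LDB3 and NRAP) and none rose. Coupling genes likewise held 3 of 6 that fell (RYR1, CAV3 and CACNA1S). The thin filament genes divided into NEB and TNNT3, which rose, and ACTA1, TNNI1 and TNNT2, which fell. MYLPF and MYOM1 of the thick filament and M line rose, as did SGCA, while DYSF and CKM fell. The test was the quasi-likelihood test of edgeR with stage and breed terms over all windows, in which the pair of libraries of a stage stood in as replicates with 2 residual degrees of freedom.

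Sums of this kind carry the covered length with them. With the log of the covered length as an offset, which gives counts per covered base, 29 members were higher and 2 lower at E28 beside 60.9% of all windows higher and 1.98% lower, and the median of all windows moved to 0.53 and that of the members to 0.60. Of the 13 windows that fell in the sums, 9 had a positive value per covered base, and 5 of these were called higher (LDB3, NRAP, CACNA1S, DYSF and TNNT2). TCAP and MYOZ1 were still called lower, and all 8 windows that rose in the sums were called higher per covered base as well. Leaving out the E18 DZ library left 2 members called, TCAP and TNNI1, beside 5.26% of all windows. Leaving out the E18 ZZ library left 10 beside 18.3%, with SMTNL1, NEB, CAV3, ACTA1, TTN and DYSF among those lost. A window without a called peak in a library entered the test at 0, which applied to 4 members (MYL1, MYOZ1, MYOZ2 and XIRP1), of which MYOZ1 was called. In the offset fits, here and below, a library without a called peak took a placeholder length. The value of MYOZ1 per covered base is therefore not a measured one. Peaks can also belong to the window of another gene, and over 90% of the counts did so in TNNC2, MYL1, MYOZ2, TCAP, MYLPF, TNNC1, ACTN3 and TNNI2.

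KLHL41, an adaptor of the CUL3 ubiquitin ligase that stabilises nebulin in the sarcomere, held 0.849 CPM (E18 ZZ), 0.69 CPM (E18 DZ), 3.69 CPM (E21 ZZ), 4.98 CPM (E21 DZ), 7.13 CPM (E28 ZZ) and 12.1 CPM (E28 DZ). Its 3 stages did not overlap, and the log2 fold change from E18 to E28 was 3.55 (SE 0.503, edgeR adjusted p = 0.00809), or 1.59 per covered base. Peaks shared with the neighbouring gene BBS5 held 32.0% of its counts. KLHL40, its paralogue, held 2.5 and 1.14 CPM at E18, 4.6 and 7.91 CPM at E21, and 6.42 and 12.4 CPM at E28. The E21 and E28 libraries overlapped for this gene, and its rise from E18 to E28 was 2.25 (SE 0.653, adjusted p = 0.0438), a call that was lost without E18 DZ, without either E21 library and without E28 DZ. SMTNL1, a smoothelin-like protein of the muscle filament system, held 6.71 and 6.93 CPM at E18, 9.36 and 9.33 CPM at E21, and 13.3 and 18.1 CPM at E28. Each stage lay above the one before it, and the change from E18 to E28 was 1.16 (SE 0.216, adjusted p = 0.0141).

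TNNT3, the troponin T of fast muscle, had the smallest adjusted p among the windows that rose. It held 27.7 CPM (E18 ZZ), 23.7 CPM (E18 DZ), 27.4 CPM (E21 ZZ), 27.6 CPM (E21 DZ), 53.6 CPM (E28 ZZ) and 42.3 CPM (E28 DZ). The E18 and E21 libraries overlapped and both E28 libraries stood above them, with log2 changes of 0.86 (SE 0.118, adjusted p = 0.00779) from E18 and 0.76 (adjusted p = 0.0388) from E21. No promoter peak of TNNT3 was called at E21 or E28. Its gene body rose by 1.14 from E18 to E28 (edgeR adjusted p = 0.0213). MYLPF, the regulatory light chain of fast myosin, held 129 and 132.8 CPM at E18, 163 and 185 CPM at E21, and 197 and 201 CPM at E28. It rose by 0.57 (SE 0.0807, adjusted p = 0.00812) without overlap between stages, and 98.5% of its counts lay in peaks that also overlapped the windows of other genes, among them TBC1D10B. MYOM1, which encodes the M line protein myomesin, held 36.3 and 36.9 CPM at E18, 43.9 and 53.9 CPM at E21, and 63.8 and 106 CPM at E28 (log2 change 1.14, SE 0.187, adjusted p = 0.0107). SGCA, a sarcoglycan of the dystrophin complex, held 15.8 and 17.2 CPM at E18, 18.5 and 19.7 CPM at E21, and 28.7 and 43.8 CPM at E28 (log2 change 1.08, SE 0.17, adjusted p = 0.00986). For both genes the E28 libraries stood above all others and the DZ library was the higher of the E28 pair.

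TCAP, the telethonin that caps titin at the Z disc, fell the furthest among the windows with a peak in every library. It held 23.6 CPM (E18 ZZ), 23.4 CPM (E18 DZ), 14.7 CPM (E21 ZZ), 7.67 CPM (E21 DZ), 1.69 CPM (E28 ZZ) and 1.28 CPM (E28 DZ). The stages did not overlap, and the log2 change was −4.05 (SE 0.288, adjusted p = 0.0037) from E18 to E28 and −2.91 (adjusted p = 0.019) from E21 to E28. Per covered base the fall from E18 to E28 was smaller, at −0.87 (adjusted p = 0.000469). Its covered length moved with it, from 5724 and 5338 bp at E18 to 640 and 588 bp at E28, and 98.8% of its counts lay in peaks shared with the window of PNMT. The merged region over TCAP gave −2.42, a smaller fall than that of the window. It was not called per covered base (−0.32, edgeR adjusted p = 0.178). CAV3, the muscle caveolin, held 11.5 and 11.7 CPM at E18, 7.51 and 8.81 CPM at E21, and 2.44 and 2.99 CPM at E28, again without overlap. Its log2 change was −2.13 (SE 0.269, adjusted p = 0.00689) from E18 and −1.62 (adjusted p = 0.0408) from E21. The call at E28 was lost per covered base, at −0.48, and when either E18 library was left out.

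TNNI1, the troponin I of slow muscle, was the single member that differed between E21 and E18, where 1.93% of all windows were called. It held 42.8 CPM (E18 ZZ), 52.7 CPM (E18 DZ), 23.6 CPM (E21 ZZ), 28 CPM (E21 DZ), 22.6 CPM (E28 ZZ) and 27.1 CPM (E28 DZ). Both E18 libraries stood above the others and E21 and E28 overlapped, with log2 changes of −0.89 (SE 0.0921, adjusted p = 0.0357) at E21 and −0.97 (SE 0.0924, adjusted p = 0.00455) at E28. The direction turned when a peak had to lie at least 50% inside the window, with 0.0055 at E28, and per covered base, with 0.34. The value per covered base was not called (edgeR adjusted p = 0.0569), and the median of all windows on that scale was 0.53. At an unadjusted p below 0.05 there were 16 members between E21 and E18, beside 29.1% of all windows, and DESeq2 called 17, beside 33.3%. The call was lost when any of the E18 or E21 libraries was left out, whereas omitting E28 ZZ gave 9 calls beside 10.7% of all windows and omitting E28 DZ gave 11 beside 12.4%. Between E28 and E21, 3 members were called (TNNT3, TCAP and CAV3) beside 5.71% of all windows, and DESeq2 called 17, beside 33.6%. Leaving out a library gave 0 (E21 ZZ, beside 0.13%) to 14 (E28 ZZ, beside 13.7%) members in that comparison.

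LDB3, which encodes the Z disc protein ZASP, held 79.4 and 77.9 CPM at E18, 69.6 and 62.3 CPM at E21, and 59.2 and 46.5 CPM at E28 (log2 change −0.62, SE 0.0944, adjusted p = 0.00929). ACTA1, the skeletal alpha-actin, held 17.8 and 19.5 CPM at E18, 16.9 and 14.8 CPM at E21, and 9.99 and 11.3 CPM at E28 (−0.84, SE 0.156, adjusted p = 0.0138). Neither gene overlapped between stages. Per covered base LDB3 was called higher, at 0.87, while ACTA1 gave 0.38 and was not called (edgeR adjusted p = 0.0969). The median of all windows on that scale was 0.53, and ACTA1 lay below it. MYOZ1, a calcineurin-binding Z disc protein, held 12.9 and 13.8 CPM at E18, 3.12 and 1.52 CPM at E21, was listed at 0 in E28 ZZ and held 0.0912 CPM in E28 DZ (adjusted p = 0.0114). No fold is given for it because of the library listed at 0. MYL1, an essential light chain of fast myosin, had called peaks at E18 alone, with 1.01 and 1.31 CPM.

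Markers of other cells moved over the same stages. Of 12 cardiac markers 9 fell from E18 to E28 and none rose, with summed levels of 613, 586, 438, 402, 307 and 357 CPM across the libraries in the order used above, and MYL7 had no called peak at E28. Of 8 neural markers 6 fell, of 9 fibroblast markers 5 rose and 1 fell, of 7 endothelial markers 1 rose and 4 fell, and 2 of 5 blood markers fell, where 20.6% of all windows rose and 21.8% fell. The smooth muscle list held 2 of 6 that rose and 2 that fell, and the somite list 1 of 8 each way. The 8 myogenic regulators were at 443 to 541 CPM in sum with peaks for each of them in every library, and MYOG and MEF2C rose while PAX3 fell. Of 57 further muscle genes 6 rose and 17 fell, and without the 5 that are also among the cardiac markers (MYH7, MYL2, TNNI3, RYR2 and MYBPC3) 6 of 52 rose and 13 fell. Per covered base, where 60.9% of all windows rose and 1.98% fell, 2 cardiac markers were higher and 1 lower, 2 neural markers higher and 3 lower, 8 fibroblast markers higher and 1 lower, and 5 endothelial, 2 blood, 6 smooth muscle and 5 somite markers higher and none lower. Of the further muscle genes 32 were higher and 3 lower on that scale, and of the myogenic regulators 7 were higher. The part of these cell types in the changes of the members was not tested.

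Promoters, taken as the peaks that overlapped the 2000 bp before the gene start, showed the stage changes on another footing. Of 40 members with a promoter that could be tested, 13 changed from E18 to E28, 7 upward and 6 downward, against 29.2% of 18665 promoters. The promoters that rose were those of NEB, TNNC2, MYLPF, KLHL41, SMYD1, SMTNL1 and SGCA, and those that fell were ACTA1, XIRP1, TCAP, LDB3, JPH2 and DYSF. Per covered base 17 members' promoters were higher and 3 lower, beside 39.4% and 6.04% of all promoters. Of the 7 that rose in the sums 6 stayed called, and of the 6 that fell JPH2 and TCAP did. For TCAP, gene body peaks outside the promoter value were called at E28 and not at E18 or E21. The merged TCAP region was not called per covered base (−0.32, edgeR adjusted p = 0.178). With peaks at least 50% inside the promoter no promoter of any gene was called, 30 members among them. Omitting E18 DZ left 0 calls beside 1.71% of all promoters, E18 ZZ 1 beside 2.48%, E21 ZZ 2 beside 4.26%, E21 DZ 4 beside 5.98% and E28 DZ 7 beside 14.4%. The other 2 members, MYOZ2 and MYPN, had no promoter peak in any library, and of the 7 tested members that lacked a promoter peak in some library of E18 or E28, XIRP1 was called and the others were not.

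The KLHL41 promoter, whose sequence is printed above, held 0.849, 0.69, 3.69, 4.55, 7.13 and 11.4 CPM with the ZZ library before the DZ library at E18, E21 and E28 (log2 change 3.41 from E18 to E28, SE 0.437, adjusted p = 0.0215). The promoter of NEB, the giant protein that lines the thin filament, held 2.1, 1.75, 4.6, 5.55, 9.06 and 13.4 CPM in that order (2.38, SE 0.352, adjusted p = 0.024). The promoter of SMYD1, a methyltransferase that assists myosin folding, held 1.48, 1.6, 3.68, 3.69, 7.18 and 15.1 CPM (2.65, SE 0.431, adjusted p = 0.0263). In all 3 genes the stages did not overlap, and the promoters were called higher per covered base as well, at 1.59, 2.32 and 2.05. The window of SMYD1 as a whole gave no call (0.29, adjusted p = 0.565), with 8.14 and 9.11 CPM at E18 and 7.18 and 15.1 CPM at E28, where every called peak lay at the promoter. MYLPF rose less, by 0.56 (SE 0.0934, adjusted p = 0.0272), from 78.3 and 81.9 CPM at E18 through 102 and 114 CPM at E21 to 121 and 139 CPM at E28, and gave 0.02 per covered base (adjusted p = 0.853).

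The ACTA1 promoter held 17.8 and 19.5 CPM at E18, 16.9 and 14.8 CPM at E21, and 3.67 and 5.73 CPM at E28 (log2 change −2.14, SE 0.272, adjusted p = 0.0213). In the 4 libraries of E18 and E21 a single peak of 4541 to 4626 bp covered both promoter and gene, so the promoter value equals that of the window. At E28 the call was split, with 6.31 and 5.59 CPM in a peak of the gene body outside the promoter value, and the merged ACTA1 region fell by 0.85 (adjusted p = 0.0146). The promoter of XIRP1, an actin-binding repeat protein of muscle attachment sites, held 17 and 16.7 CPM at E18, 0.436 and 2 CPM at E21 and was listed at 0 in both E28 libraries (adjusted p = 0.0218). The promoter of DYSF, which encodes the membrane repair protein dysferlin, held 20.7 and 22.6 CPM at E18, 13.1 and 11 CPM at E21, and 10.7 and 8.03 CPM at E28 (−1.36, SE 0.18, adjusted p = 0.0221). The LDB3 promoter held 23.8 and 26.1 CPM at E18, 11.2 and 15.7 CPM at E21, and 4.97 and 2.44 CPM at E28 (−2.92, SE 0.422, adjusted p = 0.0236). The merged regions at the starts of LDB3 and TCAP fell by 1.86 and 2.42, where the LDB3 promoter fell by 2.92 and the TCAP window by 4.05. Each of these promoters was highest at E18, and covered length fell with level, from 6060 and 6520 bp at E18 to 1505 and 613 bp at E28 in LDB3. Per covered base the calls were lost, at −0.16 for ACTA1, −0.08 for DYSF and −0.27 for LDB3, with adjusted p of 0.527, 0.726 and 0.3, and for XIRP1 (adjusted p = 0.404). The XIRP1 promoter took a placeholder length at E28, where it had no called peak.

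Promoter and gene body parted in several members. In TTN, the gene of titin, the promoter gave 1.93 (SE 0.543, adjusted p = 0.0623) on values of 1.32, 1.15, 1.75, 1.94, 3.9 and 6.78 CPM in the order of libraries above, while the gene body without these peaks fell by 1.86 (adjusted p = 0.0182). In JPH2, whose product junctophilin joins the surface and reticulum membranes, the promoter fell by 1.75 (adjusted p = 0.0237) and the window gave 0.00 (adjusted p = 0.974). Gene bodies without promoter peaks were called in 10 of 40 tested members from E18 to E28, 3 upward (TNNT3, MYOM1 and SGCA) and 7 downward (SMYD1 with a body listed at 0 at E28 among them), against 25.2% of all gene bodies, with DESeq2 calling 20 beside 55.7%. Per covered base 25 were higher and none lower, beside 58.2% and 0.874% of all gene bodies, and the body of TTN gave 0.29 (adjusted p = 0.335). Bodies without a called peak in a library, as those of ACTA1, TCAP and KLHL41 at E18, took a placeholder length there. No member's gene body was called when any of the E18 or E21 libraries was left out, beside at most 0.26% of all gene bodies, and 5 were without E28 DZ, beside 13.7%. No member's promoter was called between E21 and E18, between E28 and E21 or between breeds, where 0.0%, 2.45% (0.0804% higher) and 0.0% of all promoters were called. The unadjusted p was below 0.05 for 9, 9 and 0 members in these comparisons, beside 21.3%, 20.7% and 2.46% of all promoters.

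**Figure D2:**
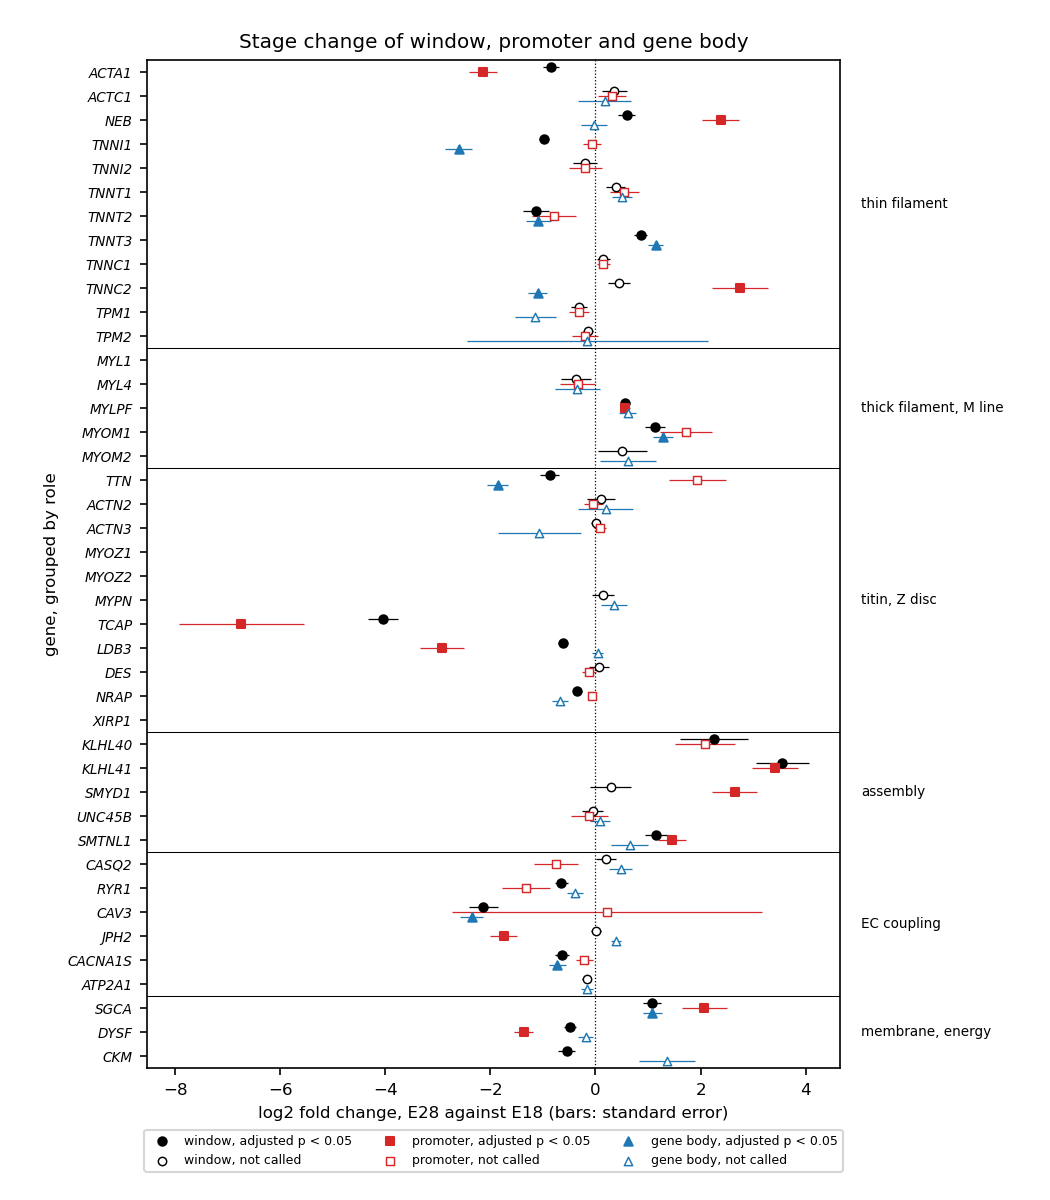
Log2 fold change from E18 to E28 of the window, the promoter and the gene body of each member, with bars of 1 standard error and filled symbols for an adjusted p below 0.05, leaving out levels with a library listed at 0 at E18 or E28. The promoters of NEB, SMYD1 and TTN lie to the right of their windows, and those of ACTA1, LDB3 and JPH2 to the left. The body of ACTA1, listed at 0 at E18 and at 6.31 and 5.59 CPM at E28, is among the levels left out, since the peak that spans promoter and gene at E18 is called in parts at E28.

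Single regions gave a view in which every library could have a called peak within the same merged region. Regions were built by chaining overlapping peaks, so the peaks of any pair of libraries in a region need not overlap each other. Of the 388 merged regions in the windows, 144 (37.1%) had a peak in all 6 libraries, against 26.6% of all regions. Among the 47 regions that overlapped a promoter, 37 (78.7%) did, against 82.1% of 15411 regions at promoters of protein-coding genes. Another 42 regions had peaks in both E18 libraries alone, 4 in both E21 libraries alone and 3 in both E28 libraries alone, which is 10.8%, 1.03% and 0.773% of the members' regions against 12.7%, 2.21% and 2.23% of all regions. From E18 to E28, 58 of the 144 regions changed, 25 upward and 33 downward, against 37.1% of 78533 regions tested. When peaks had to be open in 1% of barcodes, fewer regions of the series could be tested. Of the members' regions 36 were then called, where 44.7% of 47671 regions were. The 144 were counted without that filter, so the 36 are not a share of them. Fewer of the members' regions were called when either E18 library was left out, and the share called over all regions fell as well. Of the 37 regions at promoters 11 rose and 6 fell, where 24.4% of such regions in the genome rose and 15.8% fell, and of the other 107 regions 14 rose and 27 fell, where 18.0% and 18.6% did. Covered length was shorter at E28 in 112 of the 144 regions, among them all 33 that fell, while 22 of the 25 that rose had a longer one. These counts of covered length were not made over all shared regions. Per covered base 68 of the 144 regions were higher and 11 lower, beside 45.8% and 6.39% of all regions, with 23 of the 25 still called higher and 11 of the 33 still called lower.

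Several genes held regions that moved in opposite directions. This was so in 5 of the 39 members with a shared region: DYSF with 2 upward and 8 downward of 23 regions, RYR1 with 2 and 4 of 9, JPH2 with 2 and 2 of 10, MYOM1 with 3 and 1 of 7, and TNNC2 with 1 and 1 of 3. Another 13 members held regions that rose and none that fell, 11 held regions that fell and none that rose, and 10 held no called region. The same count was not made over other genes, and 37.1% of all shared regions were called.

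RYR1, the calcium release channel of the sarcoplasmic reticulum, showed both directions within one gene. The intron region chr6:47340417-47341344, centred 1122 bp after the start and printed in part above, held 0.624, 0.625, 3.9, 4.01, 6.81 and 12 CPM from E18 ZZ to E28 DZ in the order used above (log2 change 3.83, SE 0.367, adjusted p = 0.00289). The exon-overlapping region chr6:47352791-47354393, centred 13834 bp after the start, held 7.88, 7.79, 4.36, 1.88, 0.958 and 0.943 CPM (−3.08, SE 0.413, adjusted p = 0.00501). The stages did not overlap in either region, and the first gained where the second lost, also per covered base (2.53 and −0.85).

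Other regions that rose lay at starts and in introns. The MYOM1 intron region chr6:103456320-103459197, 6553 bp after the start, held 5.28, 5.61, 9.59, 11.08, 28.7 and 59.9 CPM (2.91, SE 0.289, adjusted p = 0.00297). The JPH2 intron region chr17:46627455-46629069, 37064 bp after the start, held 3.22, 3.74, 7.06, 10.7, 16.9 and 18.2 CPM (2.29, SE 0.233, adjusted p = 0.00306). In both the stages did not overlap and E28 was the highest. The region chr17:48028645-48030547 before TNNC2, the troponin C of fast muscle, held 2.22, 1.62, 4.43, 3.32, 12.1 and 14.6 CPM (2.78, SE 0.314, adjusted p = 0.00358), and 6.2% of its length lay inside the window of TNNC2. The region chr15:545430-547530 over the NEB start held 2.1, 1.75, 4.6, 5.55, 9.06 and 13.4 CPM (2.47, SE 0.32, adjusted p = 0.00463). All 4 of these regions were called higher per covered base too, at 1.91 to 2.41.

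Among the regions that fell, chr14:87658364-87665043 over the LDB3 start held 23.8, 26.1, 14, 15.7, 6.65 and 7.52 CPM (−1.86, SE 0.16, adjusted p = 0.0026). The region chr10:23784175-23789319 across the end of TNNI1 held 23.8, 28.3, 15.5, 13.2, 5.92 and 6.45 CPM (−2.12, SE 0.184, adjusted p = 0.00264), with 20.2% of its length inside the window. The stages did not overlap in either, and the E28 libraries were the lowest. The TCAP region chr12:22648776-22654530 held 23.6, 23.4, 14.7, 7.67, 5.79 and 3.63 CPM (−2.42, SE 0.254, adjusted p = 0.00319). The region chr3:18551175-18554953 in ATP2A1, the fast muscle calcium pump, held 16.6, 16.5, 5.68, 2.09, 4.21 and 1.59 CPM (−2.77, SE 0.402, adjusted p = 0.00599). In ATP2A1 the E21 and E28 libraries overlapped and the E18 libraries stood above both. Per covered base the TNNI1 and ATP2A1 regions were still called lower, at −0.71 and −0.65, and the LDB3 and TCAP regions were not, at −0.41 and −0.32.

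Regions with peaks at a single stage were weak. The 3 strongest of E18 were an intron region of CACNA1S, the voltage sensor of excitation-contraction coupling, at chr10:23560809-23561438 (1.59 and 2.29 CPM), and 2 in introns of CASQ2, a calcium-binding protein of the reticulum, at chr4:104933330-104934091 (2.27 and 1.23 CPM) and chr4:104941846-104942732 (2.25 and 0.874 CPM). Of the 4 regions of E21 alone the strongest lay in an intron of MYOM1 at chr6:103476586-103477154 (1.89 and 2.5 CPM). The regions of E28 alone lay in DYSF at chr3:71219464-71220041 (0.701 and 3.19 CPM), in NEB over an exon at chr15:697024-697340 (0.935 and 1.19 CPM) and in ACTN2 at chr14:54728015-54728604 (0.345 and 1.6 CPM).

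**Figure D3:**
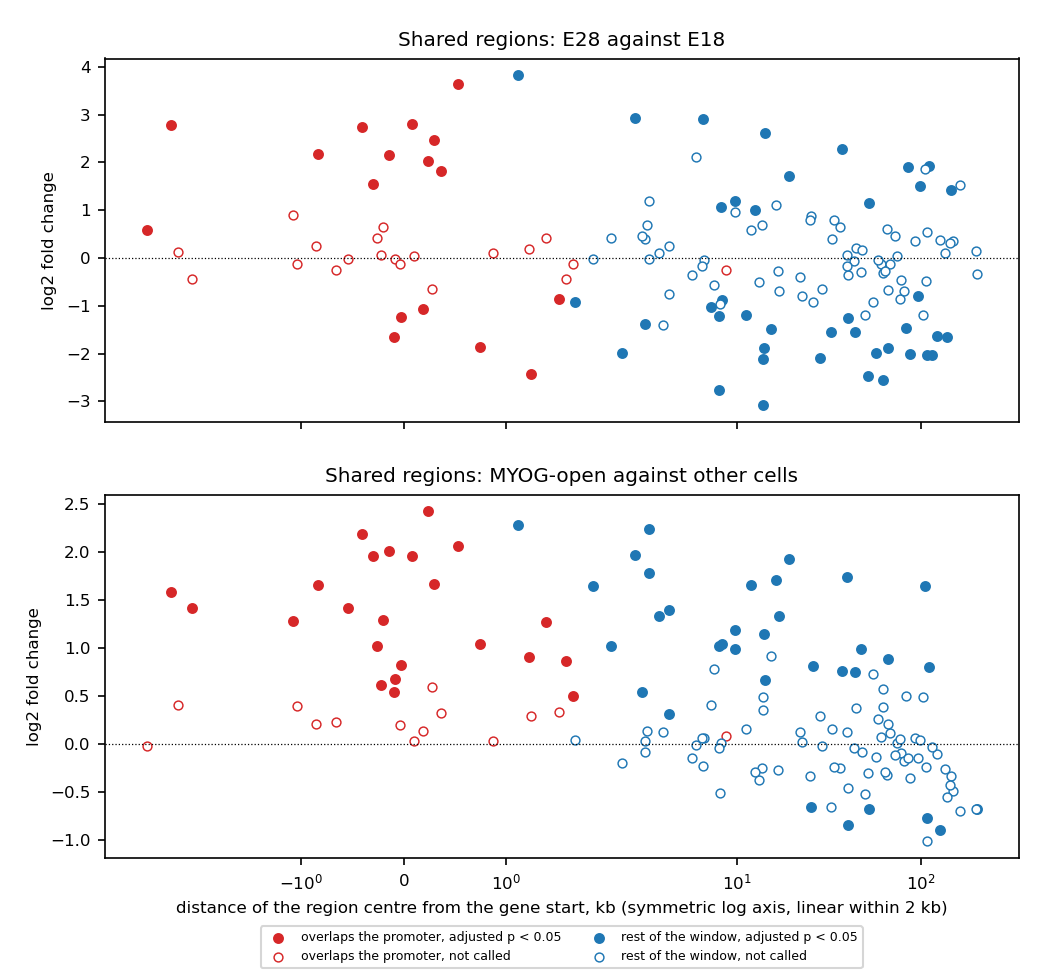
Log2 fold change of the 144 shared regions against the distance of their centre from the gene start, on a symmetric log axis in kb, from E18 to E28 in the upper panel and between MYOG-open and other cells in the lower panel, with filled points for an adjusted p below 0.05. In the lower panel the called promoter regions all lie above 0, and the 6 called regions below 0 lie far from the start.

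Cells with an open MYOG window were then compared with the other cells of the same library, a split in which the members' own counts had no part, since MYOG is no member. A cell was called MYOG-open with at least 1 cut site in a MYOG peak. Such cells made up 4.06% (E18 ZZ), 3.87% (E18 DZ), 5.29% (E21 ZZ), 5.46% (E21 DZ), 6.83% (E28 ZZ) and 9.82% (E28 DZ) of the kept barcodes. They were deeper than the others, with medians of 13027 to 16085 counts against 7758 to 11295, and a cell without a cut site in so small a window may still hold open chromatin there. Counts were summed for each library and class and tested with the library as a block.

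Of the 42 windows 24 were higher in MYOG-open cells and none was lower, against 6.43% of 23639 windows called 4.61% higher and 1.82% lower. The median log2 fold change was 0.58 over the members and −0.01 over all windows. All 5 assembly genes were higher, as were 7 of 12 thin filament genes, 2 of 5 of the thick filament and M line, 5 of 11 of titin and the Z disc, 3 of 6 of coupling, and 2 of 3 of the membrane and energy supply. At promoters 24 of 40 members were higher and none was lower, against 5.95% of promoters called, 3.97% higher and 1.98% lower, with 9 of 12 thin filament promoters and none of the 5 of the thick filament and M line. Gene bodies without promoter peaks gave 13 higher and 1 lower (CASQ2) of 41 members, against 9.17% called and 5.49% higher. The promoters with the largest log2 change were TTN (2.47), SMYD1 (2.26), KLHL41 (2.13), SGCA (2.05) and SMTNL1 (2.01). The number of windows called fell to 5 without the E21 DZ library, to 7 without E21 ZZ and to 9 without E28 ZZ, beside 0.602%, 1.22% and 1.02% of all windows, and a class set by MYF5 or MYF6 in place of MYOG gave 15 beside 2.43% of all windows.

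KLHL41 held 14.2 CPM in MYOG-open against 2.91 CPM in other cells in E21 ZZ, 22.8 against 3.48 in E21 DZ, 23.8 against 5.3 in E28 ZZ and 36.7 against 8.15 in E28 DZ. At E18 the open cells carried only 13 and 5 counts, at 1.91 against 0.792 CPM in ZZ and 0.804 against 0.683 CPM in DZ. The log2 change over all libraries was 2.10 (SE 0.227, adjusted p = 0.00161), and the open cells were the higher class in 6 of 6 libraries. SMTNL1 held 10.9 against 6.49 and 13.2 against 6.6 CPM at E18, 32.3 against 7.65 and 42.8 against 6.53 CPM at E21, and 46.5 against 9.67 and 54.6 against 12.3 CPM at E28 (ZZ first, log2 change 1.93, SE 0.218, adjusted p = 0.00166). Its open cells were higher in 6 of 6 libraries. KLHL40 (1.66, SE 0.235, adjusted p = 0.00455) held 21.5 against 4.77 and 36 against 8.62 CPM at E28, and in E18 DZ its open cells were the lower class, at 0.965 against 1.15 CPM on 6 counts.

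SMYD1 held 8.98 against 8.1 and 8.36 against 9.15 CPM at E18, 16.2 against 6.8 and 21.1 against 4.71 CPM at E21, and 30.1 against 4.67 and 47 against 9.95 CPM at E28 (log2 change 1.52, SE 0.329, adjusted p = 0.0219). MYPN, a Z disc protein that binds nebulin and alpha-actinin, held 20.3 against 17.4 and 17.1 against 17.9 CPM at E18, 27.3 against 11.6 and 69.5 against 18.7 CPM at E21, and 54 against 13.7 and 58.2 against 17.6 CPM at E28 (1.27, SE 0.242, adjusted p = 0.0132). TTN held 14.3 against 14 and 19 against 17 CPM at E18, 16.3 against 8.31 and 21.5 against 9.56 CPM at E21, and 20.7 against 5.73 and 31 against 7.1 CPM at E28 (1.10, SE 0.248, adjusted p = 0.0244). In these 3 genes the classes lay close together at E18 and apart at E21 and E28. MYLPF gave 0.02 (adjusted p = 0.81) for a window with 98.5% of its counts in peaks shared with other genes, while 1 of its 3 shared regions, at the start, was higher in MYOG-open cells by 2.06 (SE 0.209, adjusted p = 8.93e-05).

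The difference between the classes was then fitted for each stage. At E18 no member was called by edgeR, beside 0.00423% of all windows. At an unadjusted p below 0.05 there were 4 members, beside 5.74% of all windows. At E21, 30 members were higher and 2 lower (CASQ2 and DYSF) beside 10.3% of all windows, and at E28, 33 were higher and 2 lower (TNNT3 and DYSF) beside 23.9%. The members' medians were 0.09, 0.73 and 0.83 at the 3 stages. The difference between E28 and E18 itself was called for 26 members, 25 upward and 1 downward, beside 10.8% of all windows. That between E21 and E18 was called for 17, all upward, beside 1.79%, and that between E28 and E21 for 6 beside 3.69%, with ACTC1, TNNI1, TTN, CAV3 and ATP2A1 upward and TNNT3 downward. With cells of 8000 to 16000 counts in both classes the counts were 0, 19 and 28 within E18, E21 and E28, beside 0.00428%, 3.15% and 12.3% of all windows. For the differences from E18 to E28, E18 to E21 and E21 to E28 they were 14, 5 and 0 beside 4.27%, 0.218% and 0.856%.

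SMYD1 had log2 changes of 0.02, 1.75 and 2.48 at E18, E21 and E28 (difference from E18 to E28 2.46, adjusted p = 1.42e-06), TTN 0.10, 1.11 and 2.03 (1.93, adjusted p = 1.42e-06) and MYPN 0.08, 1.64 and 1.88 (1.79, adjusted p = 6.07e-07). KLHL40 had 0.43, 1.84 and 2.14 (1.71, adjusted p = 0.00211) and SMTNL1 0.88, 2.44 and 2.24 (1.36, adjusted p = 0.000195). KLHL41, with 0.88, 2.54 and 2.20, missed the threshold for the difference (1.32, adjusted p = 0.0561). TNNT3 went the other way, with 0.17, 0.18 and −0.48 (−0.65, adjusted p = 0.0132). At E28 it held 43 CPM in MYOG-open against 54.8 CPM in other cells in ZZ and 28.1 against 44.6 CPM in DZ, while its window had risen in the whole libraries.

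**Figure D4:**
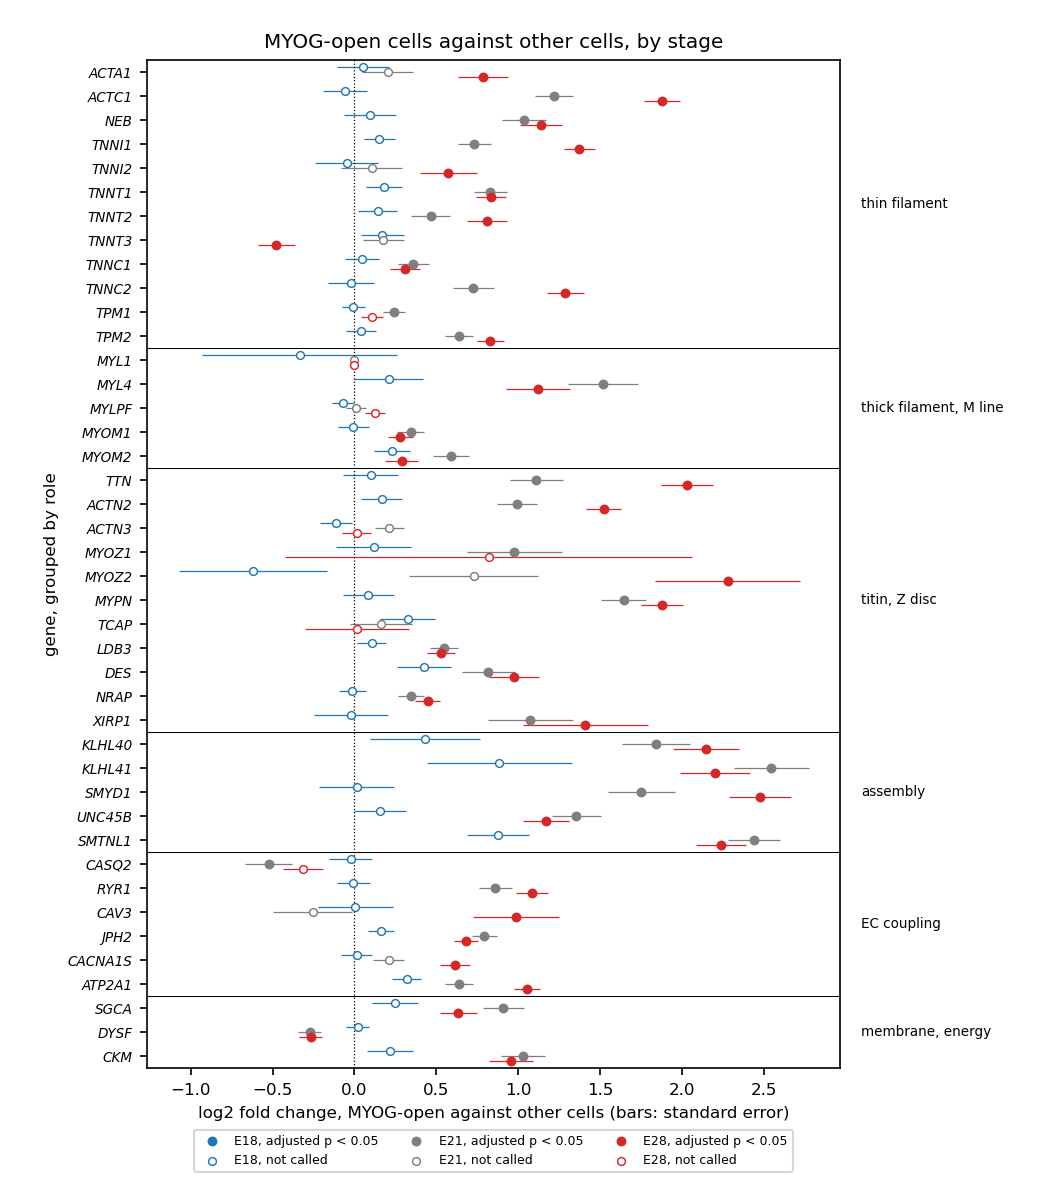
Log2 fold change between MYOG-open and other cells for each member at E18, E21 and E28, with bars of 1 standard error and filled points for an adjusted p below 0.05. No point of E18 is filled, while 32 members are called at E21 and 35 at E28, with DYSF below 0 at both and TNNT3 below 0 at E28.

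Among the 144 shared regions 57 differed between the classes, 51 higher and 6 lower in MYOG-open cells, against 14.9% of all shared regions called and 9.65% higher. At promoters 23 of 37 were higher and none was lower, against 3.09% and 2.54% of such regions in the genome, and elsewhere 28 were higher and 6 lower of 107, against 10.9% and 5.77%. Of the 25 regions that rose from E18 to E28, 16 were higher in MYOG-open cells and 1 was lower, with a median log2 change of 1.18. Of the 33 that fell, 7 were higher and none was lower, with a median of 0.21, and of the 86 others 28 were higher and 5 lower, with a median of 0.13. The same split by stage change was not made over all shared regions, so it is not shown to be particular to the members. The RYR1 intron region printed above was higher by 2.28 (SE 0.187, adjusted p = 3.48e-05) and the NEB start by 1.67 (SE 0.232, adjusted p = 0.000552), whereas the MYOM1 intron region that rose with stage gave −0.24 (SE 0.14, adjusted p = 0.29). The LDB3 start and the ATP2A1 region, which had fallen with stage, were higher in MYOG-open cells by 1.04 (SE 0.193, adjusted p = 0.00312) and 1.02 (SE 0.225, adjusted p = 0.00821).

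Among the letters upstream of the start, CANNTG was found in 20 of the 24 promoters higher in MYOG-open cells and in 12 of the 16 others tested. CAGCTG was found in 8 and 5, the MEF2 box in 2 and 5, and CATTCC in 1 and 4. The CArG box was found in 2 and 0, TCAGGTT in 1 and 1, and TATAAA in 2 and 1. No test was made of these counts.

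The same class differences were taken for the marker lists. Of the 7 myogenic regulators other than MYOG, 6 were higher in MYOG-open cells, MYF5 by 0.95 and MYOD1 by 0.82 among them, while MEF2C gave −0.01. No fibroblast marker of 9 and no blood marker of 5 was called. Of 12 cardiac markers MYH7, MYL2 and RYR2 were higher and TBX5 was lower, and of 6 smooth muscle markers ACTA2 and MYH11 were higher. KDR of 7 endothelial and ELAVL4 of 8 neural markers were lower, and MEOX1 of 8 somite markers was higher by 0.28. In cells with an open window of NKX2-5, a cardiac regulator, which made up 5.95% to 15.5% of the libraries, no member was called by edgeR beside 0.923% of all windows (0.362% higher). At an unadjusted p below 0.05 there were 3, beside 12.8% of all windows. The class rested on 1 to 3 peaks, and in cells of 8000 to 16000 counts it called 2 windows of the whole genome. Whether its cells were heart cells was not tested, so the absence of calls says nothing on the heart. A class set by GATA4 in place of NKX2-5 called 5 members beside 6.86% of all windows, but it rested on 9 to 18 peaks and held 1924 to 5374 cells a library, against 560 to 1742 for NKX2-5.

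Between breeds no member's window, promoter, gene body or shared region was called, beside 0.00429% of windows and 0.0% of the other 3 kinds. At an unadjusted p below 0.05 there were 3 windows (TNNI1, TTN and DYSF), 0 promoters, 3 gene bodies and 9 regions, beside 5.1%, 2.46%, 3.64% and 4.94% of all features of these kinds. DESeq2 called 1 window beside 2.25% of all windows. TNNI1, with the smallest p, gave 0.30 (SE 0.0748, adjusted p = 0.825) for DZ against ZZ, and the DZ library was the higher at each stage. DYSF gave −0.30 (SE 0.0974, adjusted p = 0.825), with the DZ library the lower at each stage. A p that misses the threshold does not show that the breeds are alike.

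The side on which the members lay changed with stage. DZ was above ZZ in 19 of 42 windows at E18, in 16 at E21 and in 32 at E28, where the median log2 ratios were −0.009, −0.055 and 0.260 with 0.5 CPM added. Over 23867 windows DZ was above ZZ in 46.7%, 43.1% and 40.7%, with medians of −0.004, −0.012 and −0.012. At E28 SMYD1 stood at 7.18 CPM in ZZ and 15.1 CPM in DZ, KLHL41 at 7.13 and 12.1 CPM, and MYOM1 at 63.8 and 106 CPM. DYSF went the other way, with 154 CPM in ZZ and 101 CPM in DZ, as did TNNT3. The share of MYOG-open cells differed in the same pair of libraries, at 6.83% and 9.82%, and its part in the difference was not tested. There were 10 members above in DZ at every stage and 6 at none. The same count over the stages was not made for all windows, so these counts have no share to stand beside. Since each value compares 1 library with 1 library, it has no replicate check.

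**Figure D5:**
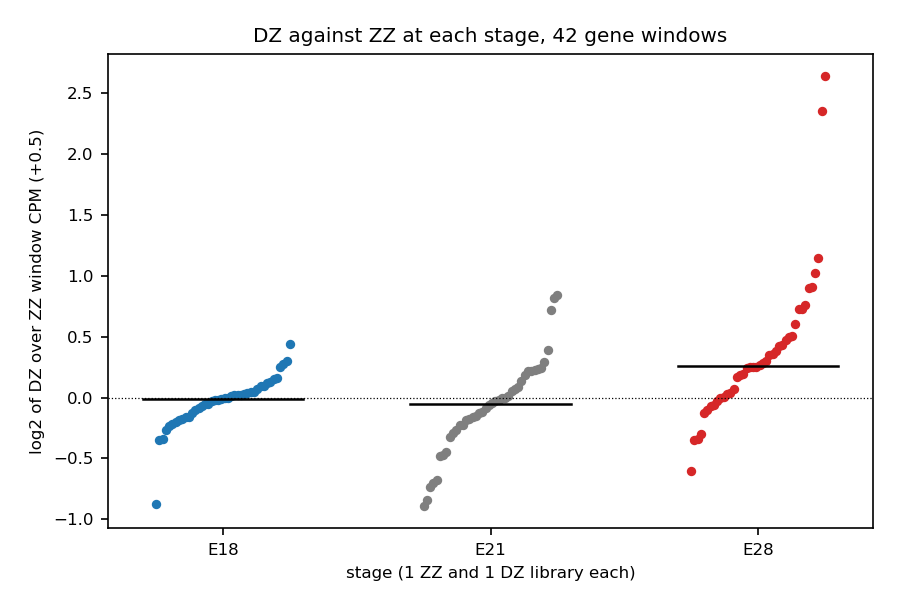
Log2 ratio of DZ over ZZ for the 42 windows at each stage, with 0.5 CPM added to both and a line at the median. The points of E28 lie mostly above 0, with a median of 0.260, and the 2 highest points there are MYOZ2 and XIRP1, which had no called peak in E28 ZZ.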

How the data were processed

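Per the labels and the study's methods, the authors aligned single-cell ATAC-seq reads to Sscrofa11.1 with Cell Ranger ATAC (file header version 1.2.0; the submitters' notes also list Seurat 3.1.1 and Signac 0.2.2) and called peaks in each library on its own. The authors deposited matrices of raw counts, each the number of Tn5 cut sites for a peak and barcode, with no normalization. The deposited peak lists carry positions only.

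Only barcodes holding between 2000 and 30000 counts were used, and no doublet caller was run. Median depth was 8084.5 to 11452 counts per barcode. Gene windows, promoters and bodies came from the RefSeq annotation of Sscrofa11.1, with a peak assigned at an overlap of 1 bp or more. Overlapping peaks of the 6 libraries were merged into regions. Counts summed per library were tested with the edgeR 4.0.16 quasi-likelihood test (R 4.3.3, TMM, filterByExpr, stage and breed terms, Benjamini-Hochberg over the whole table, threshold 0.05), and class sums with the library as a block. Windows within 100 kb of a gate gene were kept in the fits, MYBPH near MYOG among them. The logistic regression over cells of the study was not used, since cells are not replicates. Python 3.11.15, pandas 2.3.3, numpy 2.4.6 and scipy 1.17.1 made the sums. The fits were tested on simulated data.

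Alternatives were DESeq2 1.42.0, no filter on low counts, barcodes with 4000 to 60000 counts, peaks open in 1% of barcodes, 50% overlap, covered length as an offset, no breed term, leaving out each library, other gate genes, at least 3 cut sites in the gate and cells with 8000 to 16000 counts. Promoters, bodies and regions under the gate, and the gate by stage, were added after the data were seen. Members, roles and marker lists were chosen with earlier results of these data known. Named in full were up to 6 windows per direction and 4 promoters per direction with the smallest adjusted p for E28 against E18, the members called in other comparisons, 6 members with the largest change under the MYOG gate and 5 shared regions per direction. Further genes were picked with their values in view. The libraries of a stage differ in breed and sow, so p-values measure the spread between such pools, and intervals over counts would cover counting error only. RNA libraries were not analysed here.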

Additional observations from a re-analysis of the deposited data

Results flagged for a closer look

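The difference between MYOG-open and other cells changed with stage, by a test of the difference itself in edgeR. From E18 to E28 it changed for 26 members beside 10.8% of all windows, and among the members named in the report the log2 difference was 2.46 for SMYD1, 1.93 for TTN, 1.79 for MYPN, 1.71 for KLHL40, 1.43 for XIRP1, 1.36 for SMTNL1, 1.22 for TNNI1, 1.05 for NEB, 0.73 for ACTA1, 0.42 for LDB3 and −0.65 for TNNT3. From E18 to E21 it changed for 17 members beside 1.79% of all windows, with 1.74 for SMYD1, 1.56 for MYPN, 1.56 for SMTNL1, 1.41 for KLHL40, 1.01 for TTN, 0.94 for NEB and 0.58 for TNNI1. From E21 to E28 it changed for 6 members beside 3.69% of all windows, TNNT3 at −0.65 among them. In cells of 8000 to 16000 counts the 3 counts were 14, 5 and 0, beside 4.27%, 0.218% and 0.856% of all windows. The classes at E18 were thinner, with 1 MYOG peak in E18 ZZ against 2 in each other library, and with 32 and 30 cells of 3 or more cut sites at E18 against 118 and 210 at E28, and the part of this in the differences was not tested. A class of at least 3 cut sites gave 27 members higher and 1 lower over all libraries, beside 9.07% of all windows, and was not fitted by stage. The share of MYOG-open cells was 4.06% and 3.87% at E18 and 6.83% and 9.82% at E28, and its part in these differences was not tested.

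The median log2 ratio of DZ over ZZ over the members' windows was −0.055 at E21 and 0.260 at E28. The difference between stages was not tested, since each stage has 1 library of each breed.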

How the results depend on the processing

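The number of members called changed when single libraries were left out, and so did the share of all features called. A change in the members' counts below cannot be read apart from that share. Each omission also left a stage with 1 library and fewer residual degrees of freedom than the 2 of the full stage fits. Leaving out each library in turn gave 2 to 25 windows for E28 against E18 (21 with all), 0 to 11 for E21 against E18 (1 with all), 0 to 14 for E28 against E21 (3 with all), 0 to 16 promoters (13 with all), 0 to 7 gene bodies (10 with all), 16 to 61 regions (58 with all) and 5 to 28 windows under the MYOG gate (24 with all). The lowest counts of windows, promoters and regions from E18 to E28 came without E18 DZ, and those under the MYOG gate without E21 DZ. For E21 against E18, 0 windows were called when any of the E18 or E21 libraries was left out, 9 without E28 ZZ and 11 without E28 DZ. For E28 against E21, fewer members were called without either E18 or either E21 library, and the share of all windows called fell too. More were called without either E28 library, where the share of all windows rose without E28 ZZ and not without E28 DZ. For promoters the counts were 1 without E18 ZZ, 2 without E21 ZZ, 4 without E21 DZ and 7 without E28 DZ, and for bodies 5 without E28 DZ. Regions were 35 without E18 ZZ. DESeq2 called 17 windows for E21 against E18, 17 for E28 against E21, 1 between breeds and 20 bodies. With covered length as an offset the counts were 7 windows for E21 against E18, 30 for E28 against E21, 20 promoters (17 upward, 3 downward) and 25 bodies, beside 21.4%, 38.8%, 45.4% and 59.0% of all features of these kinds, and 9 of the 13 windows that fell from E18 to E28 turned direction, LDB3 (0.87), NRAP (0.77), CACNA1S (0.75), DYSF (0.65), ACTA1 (0.38), TNNT2 (0.37), TNNI1 (0.34), RYR1 (0.34) and TTN (0.32). The median of all windows on that scale was 0.53, and only LDB3, NRAP, CACNA1S, DYSF and TNNT2 of those that turned were called higher. With 50% of the peak inside, 0 windows were called for E21 against E18 (0.703% of all windows) and 0 promoters for E28 against E18 (0.0% of all promoters), and TNNI1 turned to 0.0055. Peaks open in 1% of barcodes gave 0 windows for E21 against E18, beside 0.226% of all windows, and 36 regions, and a fit with no breed term gave 0 windows for E21 against E18 beside 3.47%. A gate on MYF5 or MYF6 called 15 windows and one on GATA4 called 5, where NKX2-5 called 0. Under the MYOG gate 14 bodies and 57 regions were called in place of 24 windows, chosen after seeing the data. In cells of 8000 to 16000 counts the stage-wise gate called 19 windows at E21 (32 in all cells), and 14, 5 and 0 for the differences from E18 to E28 (26), E18 to E21 (17) and E21 to E28 (6). Of the 19 named windows over 6 omissions, 86 values kept the side of the threshold, 26 lost the call and 2 gained it. No window called with all libraries turned direction, and direction was not counted for the windows not called. The causes were not tested. The breed term matched the libraries of different stages by breed, and the library block matched the classes of cells within a library. No fit was made with a replicate number as block, since the labels give none.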

Other observations

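Of 57 further muscle genes with counts, 23 were higher and 1 was lower in MYOG-open cells, beside 6.43% of all windows called, with MYH7, MYL2 and RYR2 of the cardiac markers among those higher. SLN, which encodes the calcium pump inhibitor sarcolipin, was higher by 1.98, TRIM55, a titin-binding ubiquitin ligase, by 1.24, and LMOD2, an actin filament nucleator, by 1.18, while CSRP3 was lower by 0.55. SLN had no called peak at E18 and stood at 1.69 and 3.20 CPM at E21 and 3.31 and 4.43 CPM at E28. MYBPH gave 1.08 and lies within 100 kb of MYOG, so it is not independent of the gate.

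The genes of adult fast myosin heavy chains had called peaks in few libraries. MYH1 had none at E18, MYH2 had none at E18, and MYH4 stood at 3.57 and 2.67 CPM at E28 with 0.65 CPM in E18 ZZ and no called peak in the other libraries.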
